A study of Mus musculus with 16 samples.

Results

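The genes described are the ligands, secreted antagonists, receptors and SMAD transducers of the transforming growth factor beta (TGF-beta) and bone morphogenetic protein (BMP) pathway in the mouse mammary gland. The rule used gene symbols and no measured value, but the members were chosen with earlier results of these data known. It covered every row named as a BMP or growth differentiation factor (GDF), a TGF-beta ligand, an inhibin or activin subunit, chordin or a chordin-like protein. Also covered were noggin, gremlin, follistatin, follistatin-like proteins, receptors of these ligands and SMADs. The rule took 60 of the 24187 rows of the table, and 37 of the 60 averaged 1 FPKM or more across the libraries and were tested. FPKM are reads per kilobase of gene scaled to library size, so levels of different genes can be set side by side. Bmp4 (mean 1.06 FPKM) and Gdf11 (1.13) lay just inside that limit, and Fstl3 (0.798) and Gdf3 (0.777) just outside.

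Messenger RNA of whole mammary gland was sequenced at day 13 of pregnancy from 4 wild-type C57BL/6 samples and from 3 samples of Socs2-Δs mice, also labelled C57BL/6, a line made by CRISPR/Cas9 editing. Socs2 encodes a cytokine-induced inhibitor of JAK-STAT signalling, and the labels do not explain what Δs denotes, how many founders the line had or whether each replicate is its own animal. The p-values therefore reflect only how these samples scatter, which may be technical. Wild-type mice came from a commercial breeder, so source and genotype cannot be told apart. The mutant RNA samples carry a genotype tag that reads wild type, against their titles and source names, and were grouped by title.

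TGF-beta, activin and BMP ligands bind pairs of type I and type II receptor kinases, which phosphorylate receptor SMADs. SMAD2 and SMAD3 carry the TGF-beta and activin signal, SMAD1, SMAD5 and SMAD9 the BMP signal, and SMAD4 joins both, whereas SMAD6 and SMAD7 inhibit. Secreted antagonists such as chordin, noggin and follistatin bind ligands outside the cell. In the mammary gland TGF-beta is known to restrain ductal growth and milk secretion, and TGF-beta 3 to rise at weaning.

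Recovered depth was alike, at 21.3 to 24.5 M (mega) reads per library. Wild-type replicates 3 and 4 stood apart: on the first principal component (61.6% of the variance) they scored 57.1 and 77.9, and the other 5 libraries from -37.7 to -15.8. Comparisons with wild-type replicates 1 and 2 alone are therefore given beside those with all 7 libraries; that choice was made after the data were seen. Socs2 itself measured 25.6, 22.1, 24.8 and 16.1 FPKM in wild-type replicates 1 to 4 and 17.1, 13.9 and 16.0 FPKM in mutant replicates 1 to 3, so wild-type replicate 4 lay within the mutant range. Its log2 difference was -0.46 (SE 0.19, limma adjusted p = 0.267), and since the edited part is not given, its level may not check the labels. Differences here are mutant minus wild type on the log2(FPKM + 1) scale, on which changes of low genes appear smaller than they are.

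Markers of the gland's cell types were present in every library, and several differed between the groups. The summed FPKM of 8 alveolar secretory markers (caseins, whey proteins, Glycam1, Elf5) was 4055 to 45984 in wild type and 80710 to 107556 in mutant glands, with all 8 higher. The sum of 7 luminal epithelial keratins and junction genes was 733.2 to 1637 in wild type and 1298 to 1983 in mutant, with 7 of 7 higher. The 8 adipocyte markers were all lower, at 8256 to 19194 against 2862 to 4722 FPKM, and so were the 8 macrophage markers, at 385.6 to 757.3 against 268.0 to 335.1. Of 8 fibroblast markers 7 were lower, at 2443 to 3129 against 1484 to 2110 FPKM. Basal (496.7 to 976.3 against 846.8 to 1040) and endothelial sums (169.9 to 252.4 against 170.9 to 201.7) overlapped. Tissues outside the gland varied by library: liver markers summed to 2029 FPKM in wild-type replicate 4, 210.6 in replicate 3 and 6.80 to 10.3 elsewhere. Salivary gland markers were 65.4 to 379.9 in wild type and 29.1 to 37.9 in mutant, and skeletal muscle markers 47.7 to 951.6 and 54.3 to 165.4. Lymphocyte markers (7 of 8 found) summed to 197.0 FPKM in wild-type replicate 4 and 143.1 in mutant replicate 2, against 4.50 to 9.31 elsewhere. No marker was listed at 0 in every library. With 7 libraries 0 of 84 tested markers passed limma's test (32 at an unadjusted p under 0.05), and with wild-type replicates 1 and 2 as reference 4 alveolar secretory markers rose and 2 adipocyte and 1 salivary marker fell. The part of these differences in the results on the pathway was not tested, and in whole tissue fewer cells of a type and less RNA per cell cannot be told apart.

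Across the 37 tested members the largest difference was that of Chrdl2, 11.6-fold higher in Socs2-Δs glands, and 2 of 3 TGF-beta ligands, Smad3 and the receptor Acvr1 were also higher in every mutant library than in any wild-type library. Fstl1, Chrdl1, Acvr1c and Tgfbr3 were lower in every mutant library. With all 7 libraries, 0 of 37 members passed limma's test (adjusted over 13392 genes, threshold 0.05), where 0.0448% of all genes passed. At an unadjusted p under 0.05 there were 9 of 37 (24.3%), against 18.1% of all genes. Groups did not overlap for 9 of 37 members (24.3%), 5 higher and 4 lower, against 22.5% of all genes, a share near the background. With wild-type replicates 1 and 2 as the reference, 1 of 37 members passed, Chrdl2, and it was higher. Of all genes 1.94% passed there, 1.26% higher and 0.68% lower. At an unadjusted p under 0.05 there were then 17 of 37 members (45.9%), 5 higher and 12 lower, against 20.1% of all genes. Groups did not overlap for 21 of 37 (56.8%), 8 higher and 13 lower, against 39.9% of all genes.

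Slightly more members were lower than higher, which was not tested as a set. Of 37, 15 were higher and 22 lower in mutant glands, with a median log2 difference of -0.12, against a median of -0.0044 and 50.4% lower over all tested genes. With wild-type replicates 1 and 2 alone the median was -0.12 again, where that of all genes was 0.03. By role the median was 0.76 for 3 TGF-beta ligands, 0.12 for 7 SMADs, -0.0061 for 2 activin or inhibin subunits, -0.12 for 11 receptors, -0.31 for 6 antagonists and follistatin-like proteins and -0.35 for 8 BMP and GDF genes. The same medians with wild-type replicates 1 and 2 were 0.46, 0.06, -0.74, 0.09, -0.42 and -0.54, so receptors changed sign. Of the 37 members, 6 differed in direction between the sets of wild-type libraries. Replicates 3 and 4 both lay above replicates 1 and 2 for 9 members and both below for 11.

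**Figure D1:**
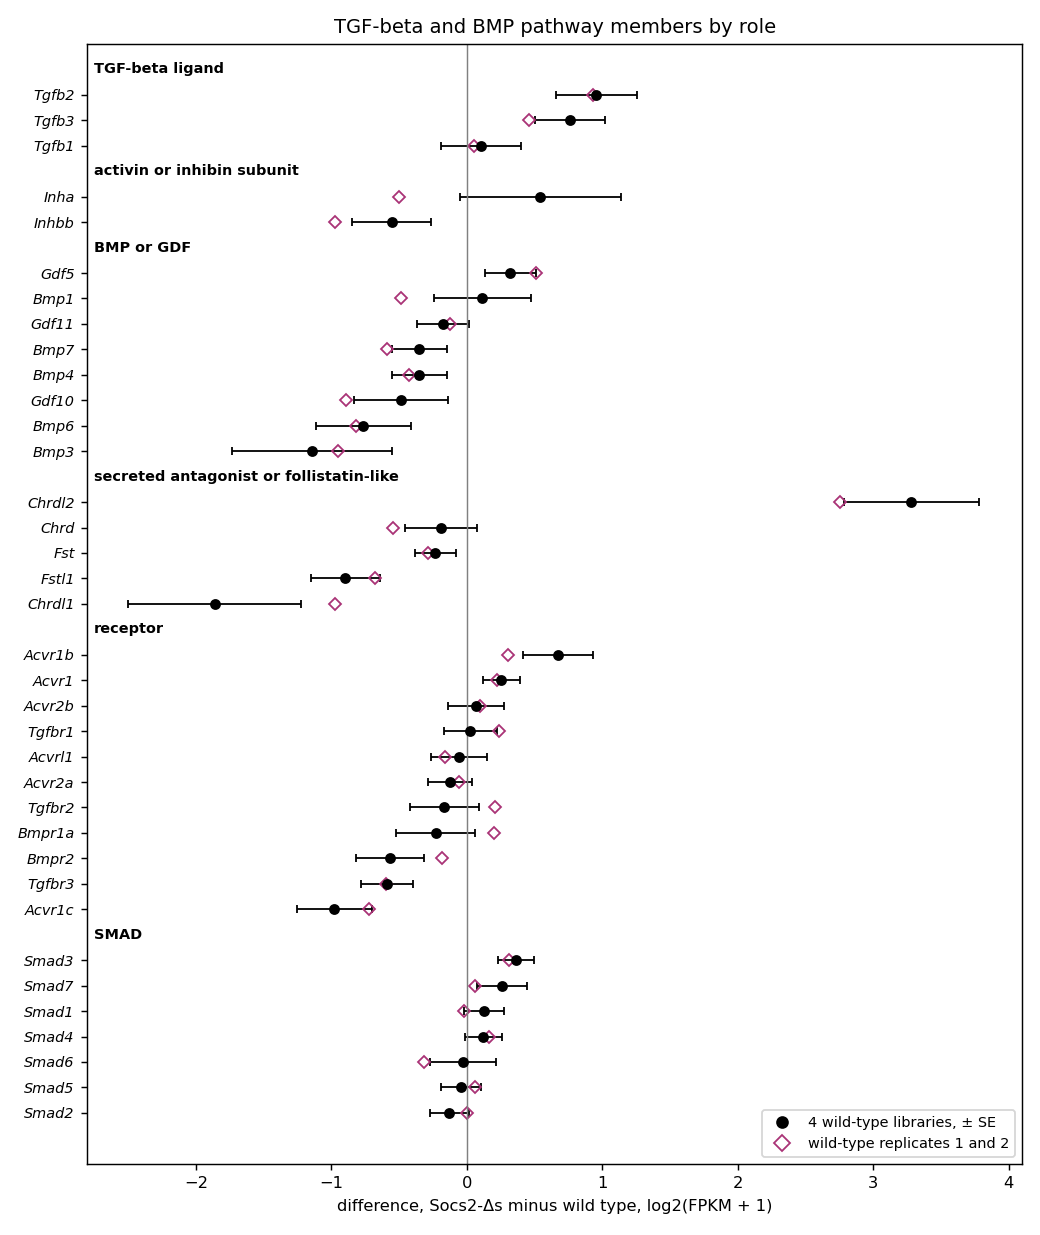
Log2 difference of each tested member described here, on the log2(FPKM + 1) scale, Socs2-Δs minus wild type, ordered by role. Filled points with bars are the difference and its SE with 4 wild-type libraries, and open diamonds the difference against wild-type replicates 1 and 2. Chrdl2 lies apart at 3.28, the filled points of the TGF-beta ligands lie at or above 0.11, and for 6 members (Inha, Bmp1, Tgfbr2, Bmpr1a, Smad1 and Smad5) the diamond falls on the other side of 0 from the point.

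Promoters of 3 members are shown: Tgfb2, higher in every mutant library, Fstl1, lower in every one and the most abundant member, and Smad6, an inhibitory SMAD whose groups overlapped, as the tested member with the palindrome described next. Each is 280 bases from RefSeq, build GRCm38.p6, 5′ to 3′ on the gene's strand, from 250 bases before the start to 30 after: Tgfb2 at chr1:186705960-186706239 (minus strand), Smad6 at chr9:64022030-64022309 (minus) and Fstl1 at chr16:37776805-37777084 (plus). Capitals mark the palindrome GTCTAGAC, a pair of SMAD binding elements, in Smad6, whose first base lies 4 bases before the start.
Tgfb2: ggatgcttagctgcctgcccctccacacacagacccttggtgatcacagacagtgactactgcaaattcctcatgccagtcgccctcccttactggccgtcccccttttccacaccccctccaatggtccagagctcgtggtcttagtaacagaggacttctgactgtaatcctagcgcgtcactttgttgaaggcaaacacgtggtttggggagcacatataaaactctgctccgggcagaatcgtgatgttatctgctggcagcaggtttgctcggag
Smad6: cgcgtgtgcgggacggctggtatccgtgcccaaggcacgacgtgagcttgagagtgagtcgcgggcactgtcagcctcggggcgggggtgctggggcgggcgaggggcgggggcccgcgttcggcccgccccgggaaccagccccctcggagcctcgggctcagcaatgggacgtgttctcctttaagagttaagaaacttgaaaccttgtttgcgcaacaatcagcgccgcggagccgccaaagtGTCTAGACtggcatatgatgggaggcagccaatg
Fstl1: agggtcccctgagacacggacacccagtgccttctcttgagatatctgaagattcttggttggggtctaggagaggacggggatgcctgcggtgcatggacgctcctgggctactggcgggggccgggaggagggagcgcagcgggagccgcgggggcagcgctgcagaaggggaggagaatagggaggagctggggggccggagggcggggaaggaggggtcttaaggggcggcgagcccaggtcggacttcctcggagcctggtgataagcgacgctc
Windows of 300 bases, 250 before and 50 after each start, were searched on both strands for TTCNNNGAA, the STAT motif, for GTCTAGAC and for GGCGCC, a GC-rich element of BMP-responsive SMADs; none of these motifs contains another. Apart from 1 member that was not looked up, 41 of the 60 members had a promoter in the RefSeq table. Chrdl2, Tgfb3, Chrdl1 and Tgfbr3 were not among these 41, so their promoters were not searched. The 41 included 23 tested members with 27 promoters. TTCNNNGAA was in 0 of these 27, against 8.30% of all 32851 promoters and 6.89% of 13305 promoters of tested genes. GTCTAGAC was in 1 of 27 (3.70%), that of Smad6, against 0.213% of all promoters and 0.278% of those of tested genes. GGCGCC was in 8 of 27 (29.6%), against 11.9% of all promoters and 20.1% of those of tested genes. The median GC content was 67.7% for these members, 60.3% for promoters of tested genes and 52.7% for all promoters, and a match of letters says nothing about binding.

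Of the 3 TGF-beta ligands, 2 were higher in mutant glands. Tgfb2, which encodes TGF-beta 2, measured 7.73, 8.91, 13.1 and 4.69 FPKM in wild-type replicates 1 to 4 and 16.4, 13.8 and 20.5 FPKM in mutant replicates 1 to 3. All 3 mutant libraries lay above all 4 wild-type ones, of which replicate 3 was nearest. The mean was 8.61 ± 3.48 FPKM (SD, n = 4) against 16.9 ± 3.36 (SD, n = 3), 1.96-fold, with a log2 difference of 0.96 (SE 0.30, limma adjusted p = 0.198). Against wild-type replicates 1 and 2 it was 0.93 (limma adjusted p = 0.0661).

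Tgfb3, the most abundant of the TGF-beta ligands, measured 46.4, 43.3, 37.3 and 22.6 FPKM in wild type and 65.6, 55.1 and 65.6 FPKM in mutant glands. Every mutant library was higher, and the lowest value was that of wild-type replicate 4. The means were 37.4 ± 10.5 (SD, n = 4) and 62.1 ± 6.06 FPKM (SD, n = 3), a 1.66-fold ratio, with a log2 difference of 0.76 (SE 0.26, limma adjusted p = 0.219) and of 0.46 against wild-type replicates 1 and 2 (adjusted p = 0.128). Tgfb1, the TGF-beta of immune cells and platelets among others, measured 17.5, 17.8, 9.82 and 26.4 FPKM in wild type and 17.4, 21.3 and 16.5 in mutant glands, so the groups overlapped (log2 difference 0.11, limma adjusted p = 0.848). Together the 3 ligands came to 53.7 to 71.6 FPKM per wild-type library and 90.2 to 102.6 FPKM per mutant library.

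Only 2 of the 5 activin and inhibin subunits passed the filter. Inhbb, the beta B subunit of activin B, measured 16.0, 10.2, 5.97 and 7.52 FPKM in wild type and 6.70, 5.46 and 5.95 FPKM in mutant glands. The mutant values lay around that of wild-type replicate 3, the lowest of its group, and below the other 3. The log2 difference was -0.55 (SE 0.29, limma adjusted p = 0.332) and -0.97 against wild-type replicates 1 and 2 (adjusted p = 0.0728). Inha, the alpha subunit that turns activin into inhibin, stood at 3.81 and 4.32 FPKM for wild-type replicates 1 and 2, at 0.289 and 0.101 in replicates 3 and 4, and at 2.51, 1.97 and 3.39 in mutant glands. Its log2 difference was 0.54 with 4 wild-type libraries and -0.50 with replicates 1 and 2 alone (limma adjusted p = 0.602 and 0.219). Inhba, Inhbc and Inhbe stayed at or below 0.299 FPKM, and Inhbc, highest in wild-type replicate 4, was at 0 reads in the mutant libraries.

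Of the 21 genes named as BMP or GDF, 8 were tested, and 6 of them were lower in mutant glands. Bmp1, whose product is not a growth factor but a protease that cleaves procollagen and chordin, was the most abundant at 26.7, 23.9, 9.86 and 10.9 FPKM in wild type and 21.1, 16.3 and 16.1 FPKM in mutant glands. The wild-type libraries split around the mutant ones, so that the means were equal at 17.9 ± 8.69 (SD, n = 4) and 17.9 ± 2.82 FPKM (SD, n = 3). The log2 difference was 0.11 (SE 0.36, limma adjusted p = 0.869) with all libraries and -0.49 against replicates 1 and 2 (adjusted p = 0.156).

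The other 7 tested BMP and GDF genes ran from -1.15 for Bmp3 to 0.32 for Gdf5 on the log2 scale, and none had groups apart. Bmp3, a BMP that restrains bone formation, measured 8.42, 3.22, 2.25 and 20.2 FPKM in wild type and 2.70, 1.95 and 2.20 in mutant glands, and wild-type replicate 3 lay among the mutant values. Bmp7 had log2 differences of -0.35 with 4 and -0.59 with 2 wild-type libraries, Gdf10 of -0.49 and -0.89, Bmp6 of -0.76 and -0.82, Bmp4 of -0.35 and -0.42, and Gdf11 of -0.18 and -0.12. Against wild-type replicates 1 and 2, 7 of 8 were lower (44.9% of all genes) and 5 of 8 were lower in every mutant library (18.1% of all genes), while Gdf5, a GDF of joint development, was higher in every one (limma adjusted p = 0.121). The other 13 stayed under the filter, and Bmp2 was the highest of them in 1 library, at 1.99 FPKM in wild-type replicate 4 against 0.286 to 0.946 FPKM elsewhere. Gdf1 was listed at 0 in all 7 libraries, and Gdf2, a circulating ligand made by the liver, had 8 reads in wild-type replicate 4 and at most 2 elsewhere, beside the liver marker sum of 2029 FPKM in that library.

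Of the 11 antagonists and follistatin-like genes, 6 were tested. Chrdl2 (Entrez 69121), a secreted protein with the cysteine-rich repeats of chordin, measured 3.35, 4.54, 3.38 and 0.285 FPKM in wild-type replicates 1 to 4 and 25.4, 27.4 and 47.5 FPKM in mutant replicates 1 to 3. The lowest mutant library stood well above the highest wild-type one, and wild-type replicate 4 was lowest of all. In recovered reads these are 147, 188, 124 and 10 in wild type and 1023, 1096 and 1769 in mutant glands, so counting error is small beside the difference. The level of wild-type replicate 4 itself rests on few reads. The means were 2.89 ± 1.82 (SD, n = 4) and 33.4 ± 12.3 FPKM (SD, n = 3). The log2 difference was 3.28 (SE 0.50), the 7th highest of 13392, and did not pass (limma adjusted p = 0.0847).

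Against wild-type replicates 1 and 2, Chrdl2 rose by 2.75 on the log2 scale (SE 0.29, limma adjusted p = 0.0234), an 8.47-fold ratio of means. It also passed with all libraries but wild-type replicate 4 (log2 difference 2.81, limma adjusted p = 0.0284) and with quantile normalization of all 7 (3.26, adjusted p = 0.0492). With wild-type replicates 1 and 2, leaving out 1 further library ended the call in 4 of 5 cases, with adjusted p of 0.220 and 0.107 without wild-type replicates 1 and 2 and 0.0754 and 0.0826 without mutant replicates 1 and 2. Without mutant replicate 3, the highest, it passed (adjusted p = 0.0290). The log2 difference in these 5 limma fits was 2.48 to 2.93. The alveolar secretory sum was 11067, 17103, 45984 and 4055 FPKM in wild-type replicates 1 to 4 and 80710, 100049 and 107556 FPKM in mutant replicates 1 to 3. Chrdl2 was lowest and highest in the same libraries as this sum, while wild-type replicate 3, with the highest sum of the wild type, had no more Chrdl2 than replicate 2; the part of the secretory cells in the difference was not tested.

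**Figure D2:**
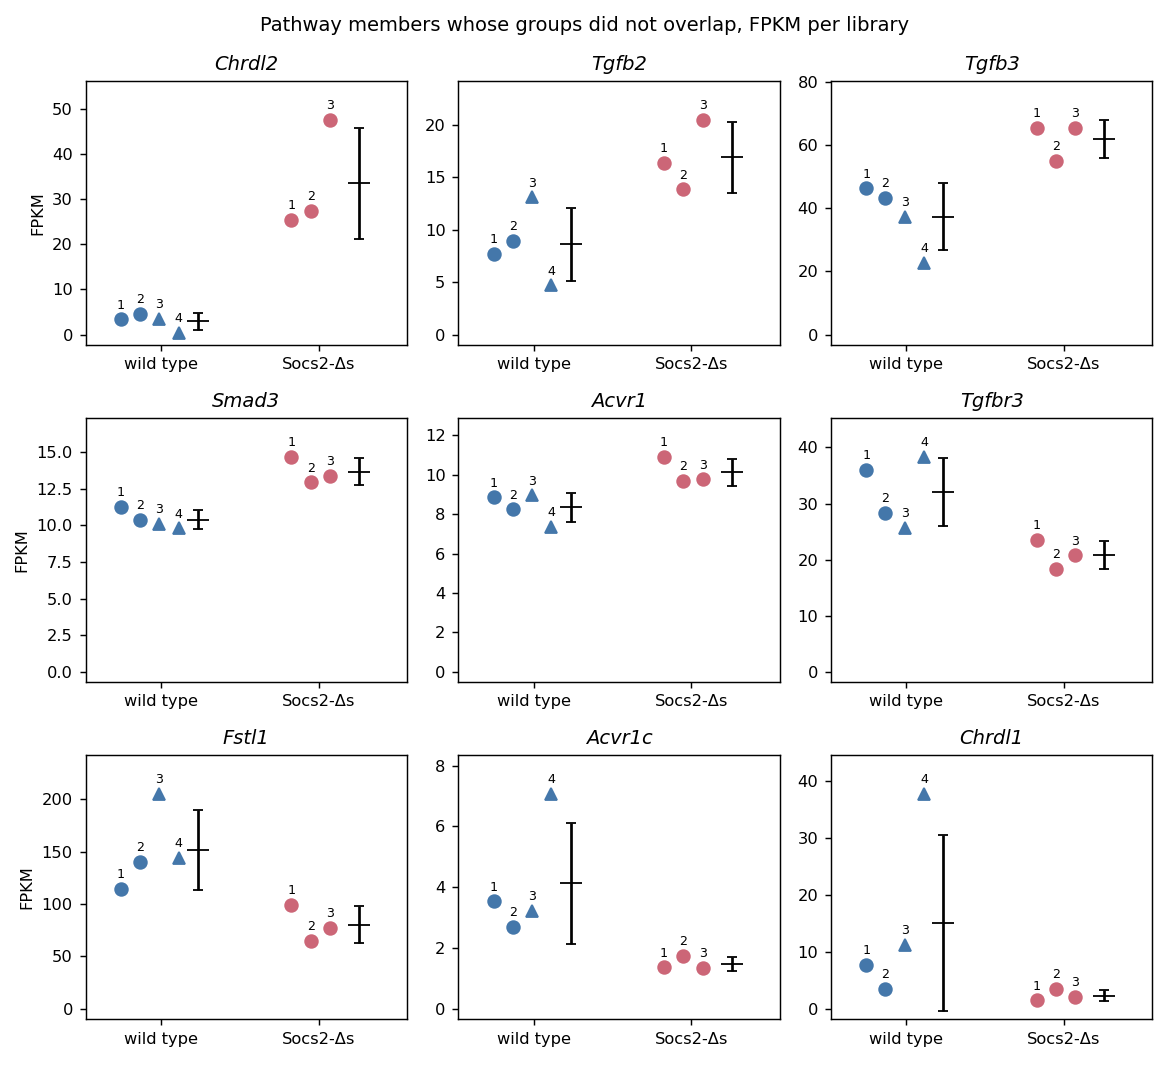
FPKM per library, on axes that start near 0, of the 9 members whose groups did not overlap. Blue marks are wild type (triangles for replicates 3 and 4) and red circles Socs2-Δs, numbered by replicate, and bars are the mean ± SD. Chrdl2, Tgfb2, Tgfb3, Smad3 and Acvr1 are higher in every mutant library, and Tgfbr3, Fstl1, Acvr1c and Chrdl1 lower. Wild-type replicate 4 sets the wide bar of Chrdl1 with 37.7 FPKM.

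Chrdl1, the other chordin-like BMP antagonist, lay the other way. It measured 7.77, 3.55, 11.2 and 37.7 FPKM in wild type and 1.46, 3.43 and 2.08 FPKM in mutant glands. The groups did not overlap, but wild-type replicate 2 and mutant replicate 2 were close, and wild-type replicate 4 was far above the rest. On the log2 scale it differed by -1.86 (SE 0.64, limma adjusted p = 0.221) and -0.97 against wild-type replicates 1 and 2 (adjusted p = 0.215).

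Fstl1, a secreted glycoprotein of mesenchymal cells that can bind BMPs, had the highest level of any member: 114.9, 140.7, 205.3 and 144.4 FPKM in wild type and 99.2, 64.7 and 77.0 FPKM in mutant glands. Every mutant library was lower than every wild-type one. The mean was 151.3 ± 38.3 (SD, n = 4) against 80.3 ± 17.5 FPKM (SD, n = 3), and the log2 difference -0.90 (SE 0.25, limma adjusted p = 0.174), or -0.68 against wild-type replicates 1 and 2 (adjusted p = 0.161). Beside it, the fibroblast marker sum was 2443 to 3129 FPKM in wild type and 1484 to 2110 in mutant glands, and its part in the result was not tested.

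Follistatin and chordin overlapped between the groups. Follistatin (Fst), which binds activin, had a log2 difference of -0.23 (limma adjusted p = 0.408) and chordin (Chrd) of -0.19. Chrd stood at 2.69 and 2.25 FPKM for wild-type replicates 1 and 2, at 0.773 and 1.54 for replicates 3 and 4, and at 1.34 to 1.39 in mutant glands, so against replicates 1 and 2 it was -0.55 (limma adjusted p = 0.0857). Grem1 was near 0 in 5 libraries and reached 0.927 and 0.656 FPKM (31 and 25 reads) in wild-type replicate 4 and mutant replicate 2, the libraries with the lymphocyte marker sums of 197.0 and 143.1 FPKM. Nog, Fstl3, Fstl4 and Fstl5 also stayed under the filter.

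Receptors were tested for 11 of 12 genes, 4 higher and 7 lower. Tgfbr2, the type II receptor of TGF-beta and the most abundant receptor, measured 33.5, 32.6, 59.4 and 52.9 FPKM in wild type and 43.5, 39.1 and 33.0 FPKM in mutant glands. Wild-type replicates 3 and 4 lay above all mutant libraries and replicates 1 and 2 near the lowest of them. The log2 difference was -0.17 (SE 0.26, limma adjusted p = 0.717) and changed sign to 0.21 with replicates 1 and 2. Bmpr2, the type II BMP receptor, was at 7.26, 6.20, 12.9 and 11.4 FPKM in wild type and 6.57, 5.13 and 5.74 in mutant glands, and the groups overlapped. Its log2 difference was -0.57 (limma adjusted p = 0.283) and -0.18 against replicates 1 and 2.

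Tgfbr3, the co-receptor betaglycan that presents TGF-beta 2 to the signalling receptors, measured 36.0, 28.3, 25.6 and 38.3 FPKM in wild type and 23.4, 18.3 and 20.7 FPKM in mutant glands. Every mutant library was lower, the nearest pair being wild-type replicate 3 and mutant replicate 1. The mean was 32.1 ± 6.06 (SD, n = 4) against 20.8 ± 2.55 FPKM (SD, n = 3), with a log2 difference of -0.59 (SE 0.19, limma adjusted p = 0.208), close to the -0.60 against wild-type replicates 1 and 2 (adjusted p = 0.117).

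Acvr1c, the type I receptor ALK7 that fat cells carry, measured 3.53, 2.68, 3.22 and 7.07 FPKM in wild type and 1.36, 1.75 and 1.35 FPKM in mutant glands. All mutant libraries were lower, and wild-type replicate 4 was highest. Its log2 difference came to -0.98 (SE 0.27, limma adjusted p = 0.174) and -0.72 against replicates 1 and 2 (adjusted p = 0.0776). The adipocyte marker sum was 8256, 8369, 9558 and 19194 FPKM in wild-type replicates 1 to 4 and 2862, 3850 and 4722 in mutant replicates 1 to 3, and its part in the result was not tested.

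Acvr1, the type I receptor ALK2, measured 8.85, 8.24, 8.96 and 7.34 FPKM in wild type and 10.9, 9.69 and 9.77 in mutant glands, higher in each mutant library. The difference was small, 1.21-fold or 0.25 on the log2 scale (SE 0.14, limma adjusted p = 0.337). Acvr1b, the activin type I receptor ALK4, was at 11.9, 9.20, 6.06 and 5.69 FPKM in wild type and 16.2, 12.4 and 11.4 FPKM in mutant glands. Its groups overlapped, wild-type replicate 1 lying among the mutant values, with a log2 difference of 0.67 (limma adjusted p = 0.249) that was 0.30 against replicates 1 and 2. The other 5 tested receptors, Bmpr1a, Tgfbr1, Acvrl1, Acvr2a and Acvr2b, overlapped, with log2 differences of -0.23 to 0.07, and Bmpr1b was under the filter.

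Log2 differences of the 7 tested SMADs ran from -0.13 to 0.36, the narrowest range of the 6 roles. The sum of the 8 genes was 64.8 to 70.1 FPKM per wild-type library and 69.4 to 74.5 per mutant library. Smad3, the TGF-beta and activin transducer, measured 11.3, 10.4, 10.1 and 9.80 FPKM in wild type and 14.7, 12.9 and 13.4 FPKM in mutant glands. All mutant libraries were higher, with little spread in either group. The means were 10.4 ± 0.631 (SD, n = 4) and 13.7 ± 0.913 FPKM (SD, n = 3), 1.31-fold, with a log2 difference of 0.36 (SE 0.13, limma adjusted p = 0.230) and 0.31 against replicates 1 and 2 (adjusted p = 0.190). Smad4, the common partner and the most abundant SMAD, measured 18.5, 16.4, 18.1 and 19.0 FPKM in wild type and 21.3, 18.6 and 19.1 in mutant glands, which overlapped (log2 difference 0.12, limma adjusted p = 0.616). Smad1, Smad2, Smad5, Smad6 and Smad7 overlapped as well, with log2 differences of -0.13 for Smad2 to 0.26 for Smad7, and Smad9 stayed under the filter.

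The neighbours of Chrdl2 were examined after its values were seen. In RefSeq order on GRCm38.p6, among protein-coding genes of the table, these are Neu3, Spcs2, Xrra1 and Rnf169 on one side and Pold3, Lipt2, Kcne3 and Pgm2l1 on the other, and none of the 8 spans overlaps that of Chrdl2. Pold3, a subunit of DNA polymerase delta and the next gene, measured 14.8, 17.7, 16.4 and 7.69 FPKM in wild type and 31.3, 32.0 and 27.5 FPKM in mutant glands. All mutant libraries were higher, 2.14-fold in the means. Over all libraries the log2 difference was 1.10 (SE 0.27, limma adjusted p = 0.158), and against wild-type replicates 1 and 2 Pold3 rose by 0.86 (limma adjusted p = 0.0421). Rnf169, on the other side, measured 4.74, 4.73, 4.39 and 4.41 FPKM in wild type and 6.38, 6.10 and 7.14 in mutant glands, without overlap (log2 difference 0.44, limma adjusted p = 0.186). Among the other tested neighbours, of 5 in all, the groups of Spcs2, Lipt2 and Pgm2l1 overlapped. Of all tested genes 12.5% were higher in every mutant library.

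**Figure D3:**
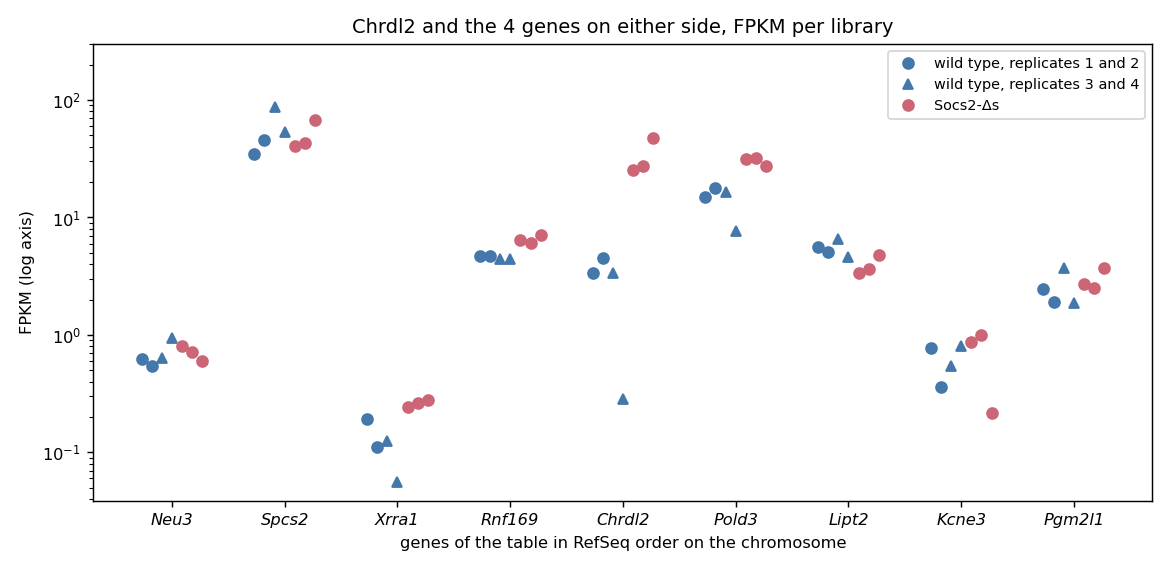
FPKM per library on a log axis of Chrdl2 and the 4 genes on either side in RefSeq gene order, with no distance to scale. Blue circles and triangles are wild-type replicates 1 and 2 and replicates 3 and 4, and red circles Socs2-Δs. The mutant libraries lie above all wild-type ones for Chrdl2, for its neighbours Pold3 and Rnf169 and for Xrra1. The latter stayed under the filter, with 3 to 16 recovered reads per library. Of all tested genes 12.5% were higher in every mutant library.

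Further genes of the pathway came from 5 lists with 70 genes, all found and 56 tested. With 7 libraries 0 of 56 passed limma's test (12 at an unadjusted p under 0.05, or 21.4%, against 18.1% of all genes), 23 were higher and 33 lower, and the median log2 difference was -0.14. Groups did not overlap for 12 of 56 (21.4%), 4 higher and 8 lower, against 22.5% of all genes. Relative to wild-type replicates 1 and 2, 2 of 56 passed and both fell, where 1.94% of all genes passed and 0.68% passed and were lower. Nbl1, a DAN-family BMP antagonist, measured 25.8, 25.0, 33.7 and 42.8 FPKM in wild type and 14.0, 15.6 and 15.0 in mutant glands, all lower. Its log2 difference was -1.02 (SE 0.21, limma adjusted p = 0.126), and it fell by 0.74 against wild-type replicates 1 and 2 (adjusted p = 0.0389). Pmepa1, a TGF-beta induced inhibitor of the pathway, stood at 49.0 and 34.9 FPKM for wild-type replicates 1 and 2, at 15.0 and 16.5 in replicates 3 and 4 and 17.0, 16.6 and 18.7 in mutant glands. It fell by 1.20 against replicates 1 and 2 (limma adjusted p = 0.0400) and overlapped with all 4 (-0.53, adjusted p = 0.457).

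Of 14 tested genes commonly used as targets of the pathway, 2 were higher and 12 lower in mutant glands, where 50.4% of all genes were lower. The median log2 difference was -0.43, or -0.46 against wild-type replicates 1 and 2. Groups did not overlap for 5 of 14 (35.7%), 1 higher and 4 lower, against 22.5% of all genes. Junb, the higher one, measured 18.2 to 23.4 FPKM in wild type and 24.4 to 30.5 in mutant glands (0.37, limma adjusted p = 0.266). Id3, a BMP-induced inhibitor of helix-loop-helix factors, measured 67.3, 59.2, 47.1 and 113.1 FPKM in wild type and 33.6, 44.6 and 35.6 FPKM in mutant glands. The highest mutant library lay just under the lowest wild-type one. Id1, of the same family, measured 21.1, 34.0, 26.3 and 28.4 FPKM against 18.2, 19.5 and 18.9, and the BMP target Atoh8 2.35, 2.05, 1.56 and 2.23 FPKM against 0.816, 1.13 and 0.963. Both were lower in every mutant library. The log2 differences were -0.83 for Id3, -0.50 for Id1 and -0.62 for Atoh8 (limma adjusted p = 0.228, 0.234 and 0.174), and those against replicates 1 and 2 were -0.73, -0.49 and -0.70 (adjusted p = 0.0803, 0.260 and 0.0661). These genes are also regulated by other signals.

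Of 15 genes of other ligands and ligand activation 8 were higher and 7 lower (median 0.12). Against wild-type replicates 1 and 2 the median of this list turned to -0.20. Furin, the protease that cleaves TGF-beta and BMP precursors, measured 23.3, 22.4, 13.6 and 16.1 FPKM in wild type and 33.6, 29.3 and 32.4 in mutant glands, higher in each (log2 difference 0.75, limma adjusted p = 0.174). Lefty1, an inhibitor of NODAL signals, was at 2.23 to 3.60 FPKM against 1.23 to 1.81, lower in each mutant library (-0.60, limma adjusted p = 0.204), and Nrros, which holds latent TGF-beta on macrophages and microglia, differed by -0.40 with overlap. Among 17 intracellular regulators (median 0.02) Tob1, an antiproliferative protein that binds SMADs, measured 43.0, 47.0, 61.6 and 37.7 FPKM in wild type and 68.4, 76.0 and 102.5 in mutant glands. It was higher in each mutant library (0.79, limma adjusted p = 0.180), as was the ubiquitin ligase Nedd4l (0.51), and Fkbp1a, which holds type I receptors inactive, was lower in each (-0.62). Among 6 further antagonists (median -0.46) Bmper was lower in each mutant library (-0.71, limma adjusted p = 0.235), whereas Sostdc1 (-0.55) overlapped. With 7 libraries the 4 co-receptors and decoy receptors all overlapped (median 0.06, or -0.07 against wild-type replicates 1 and 2). Of these, Bambi differed by -0.20, Rgma by 0.18, Rgmb by 0.06 and Eng by 0.06 on the log2 scale. Against replicates 1 and 2 Rgma, Rgmb and Eng changed sign (-0.07, -0.0086 and -0.45). Eng was then lower in every mutant library (limma adjusted p = 0.192).

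**Figure D4:**
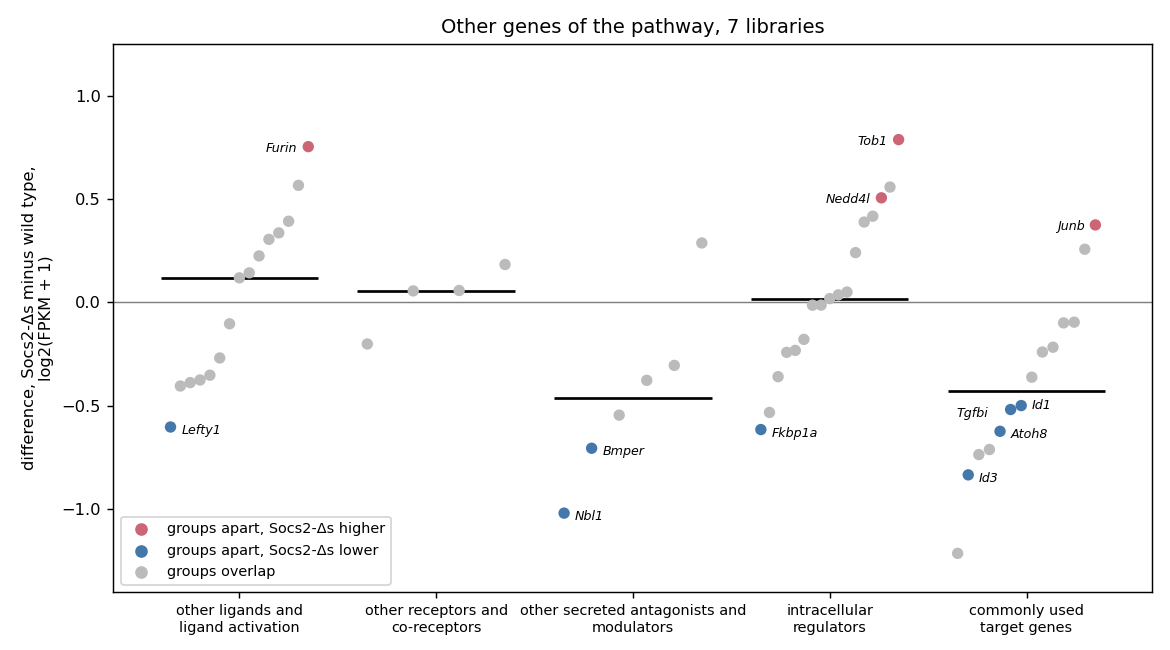
Log2 differences, Socs2-Δs minus wild type on log2(FPKM + 1) with 7 libraries, of the 56 tested further pathway genes by list. Bars are list medians, and red and blue points are genes whose groups did not overlap. Of the 14 target genes 12 lie below 0, against 7 of 15 of the ligand and activation genes and 50.4% of all tested genes. Against wild-type replicates 1 and 2, not shown, the median of the ligand and activation genes turned to -0.20.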

How the data were processed

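Messenger RNA was measured in 7 of the 16 samples, and the other 9 (ChIP-seq, DNase-seq) were not analysed here. Libraries came from poly(A) RNA by a TruSeq kit, per the labels' protocols. The build mm9 and the tools STAR, Bowtie2, CASAVA and DESeq2 are listed in the submitters' processing notes with neither version nor role. The annotation release, strand setting and filters were not given in the sources used here. FPKM per gene were deposited by the authors in 1 table of 24187 rows, of which 3143 were listed at 0 throughout. RefSeq (GRCm38.p6) gave names for 12 rows without one and 27 turned into dates, gene order and promoters. All 60 members matched it by Entrez ID.

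From the steps between low values, whole reads were recovered for 21044 of 21044 rows above 0 (tolerance 0.02), up to a factor common to a gene's libraries. These reads served for depth and to show how many reads lie behind some levels, and entered no test. Differences were tested with limma 3.58.1 in R 4.3.3 (mean-variance trend, no covariate) on log2(FPKM + 1) for 13392 rows with a mean of at least 1 FPKM, adjusted by Benjamini and Hochberg over all of them, with a threshold of 0.05. On simulated data for these 13392 genes and 7 libraries it recovered 40% of log2 changes of 1 and 81% of changes of 2, with 5 false calls. A 2-fold change could thus be missed.

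Members, the 5 further pathway lists and the 11 marker lists were chosen with earlier results of these data known. Named with values per library were members called or without overlap, the 10 of smallest p and the most abundant of each role. Of each further list the called genes and the 3 of smallest p were named, some by their log2 difference alone. Bmp3, Inha, Chrd, Bmp2, Grem1, Gdf2, Junb and Eng, some values of the other members, and the neighbours of Chrdl2 were added after their values were seen. Alternatives were the pseudocount, the filter, scaling, a replicate block, a term for wild-type replicates 3 and 4, and leaving out libraries. Of the tested members, 1 stands in the counts and medians but is not reported here by name.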

Additional observations from a re-analysis of the deposited data

Results flagged for a closer look

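In 3 genes the highest wild-type library, replicate 4 each time, lay far above the other 3. Bmper, a secreted BMP modulator, measured 6.76 FPKM there, against 3.23 to 3.61 FPKM in the others. Tgfbi, a TGF-beta induced matrix protein, measured 54.4 FPKM against 30.7 to 33.2. Cdkn1a, the cell cycle inhibitor p21, measured 52.8 FPKM against 5.72 to 10.9. The gaps were 0.892, 0.892 and 0.890 of the group's range, above Dixon's critical value for 4 samples. The 96 genes examined in this way were the 37 tested members, the 56 tested further pathway genes, Socs2, Pold3 and Rnf169, and chance marks about 1 in 20 groups.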

How the results depend on the processing

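The lead of Chrdl2 kept its direction in all 19 alternatives (log2 2.48 to 3.90). That direction could not turn when libraries were left out, since every mutant library exceeded every wild-type one. By construction the term for wild-type replicates 3 and 4 gives the same difference as replicates 1 and 2 alone, here 2.75. Only its SE and p can differ. Likewise the replicate block must give the difference found without wild-type replicate 4, here 2.81, since no mutant library has that number. The call of Chrdl2 passed in 4 of the 19, with limma adjusted p from 0.0234 to 0.397. The count of members that passed, 0, became 1 (Chrdl2) with quantile normalization, with wild-type replicates 1 and 2 only, and there also without mutant replicate 3, and was 0 to 1 when each library was left out. Over all genes the count of 6 became 1 with a pseudocount of 0.1 or no filter, 28 with quantile normalization (25 higher, 3 lower), 260 with wild-type replicates 1 and 2 and 0 with a term for replicates 3 and 4. It ran from 0 to 31 with each library left out, 31 without wild-type replicate 4. Members without overlap, 9, became 21 with wild-type replicates 1 and 2 and 10 to 16 with each library left out. The count of further pathway genes that passed, 0, became 2 with wild-type replicates 1 and 2. Nbl1, Pmepa1 and Pold3 passed under that choice alone of 14. The cause was not tested; fewer samples widen the sets without overlap by construction.

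With wild-type replicates 1 and 2, direction turned for 6 of the 37 members: Tgfbr2 (0.21), Bmp1 (-0.49), Inha (0.54 to -0.50), Bmpr1a (-0.23 to 0.20), Smad1 (0.13 to -0.022) and Smad5 (-0.042 to 0.061). Of the further genes named, Rgma (-0.069), Rgmb (-0.0086) and Eng (-0.45) turned. By construction the term gave Tgfbr2, Bmp1, Rgma and Rgmb the same values. With quantile normalization the turned values among these 4 were Tgfbr2 (0.0057) and Rgmb (-0.017), and leaving out 1 library gave -0.11 to 0.34 for Bmp1, -0.038 to 0.30 for Rgma and -0.035 to 0.13 for Rgmb. The median of members stayed between -0.15 and -0.06.

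The values do not settle whether replicate numbers pair the samples. Correlations of deviations between same-numbered libraries were 0.35, -0.10 and 0.28. Wild-type replicates 1 and 3 were closest to the mutant library of their own number, and wild-type replicate 2 was not. With the replicate block 0 genes and 0 members passed, and Bmp1 was -0.064, by construction the value without wild-type replicate 4. At a depth of 21.3 to 24.5 M reads many members under 1 FPKM had few reads. Not all did: Bmpr1b had 39 to 77 recovered reads per library, and Bmp2 reached 145 in wild-type replicate 4.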
